A study of Homo sapiens with 24 samples.

Results

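The comparison described here set the control line of a colorectal cancer model grown in a gel (3D) against the same line grown flat (2D). Its members were the 6 arrays, of 24 in the series, whose titles name the control of the inducible experiment: 3 from 3D culture and 3 from 2D culture. SW1222 is a human colorectal cancer cell line whose cells form gland-like structures with a lumen when embedded in gel. In the 3D group, control cells grew as megacolonies embedded in Matrigel, a basement membrane extract, and received 5 µg/ml doxycycline (DOX) over the last 5 days. In the 2D group, the same control cells grew as a flat culture and received 5 µg/ml DOX for 4 hours. The DPPA3-induced line, set beside the control line below, was given the same 2 treatments on 3 arrays each. Levels are also given for megacolonies grown without DOX from a shRNA control (3 arrays) and a knockout control (2 arrays). The remaining arrays, of a DPPA3 shRNA line and DPPA3 knockout clones, entered only the estimate of the spread, which used all 24 arrays. All cells were kept at 21% oxygen and 5% CO2 at 37 °C, and total RNA was hybridised to Affymetrix arrays. The labels name the control only as a control and do not say what it carries in place of the DPPA3 construct, or whether it is 1 clone. Culture form and time on DOX changed together, so the effect of the gel and that of the longer drug exposure cannot be told apart.

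Growth in gel gives an epithelial cell a matrix on every side, a cell polarity and, in a large colony, a gradient of oxygen and nutrients from the surface inwards. Low oxygen stabilises the HIF transcription factors, which raise genes of glucose uptake, pH control and blood vessel growth. The aryl hydrocarbon receptor (AhR) is a ligand-activated factor that shares the partner ARNT with the HIF proteins, and it drives the cytochrome P450 gene CYP1A1. Metallothioneins are small proteins that bind zinc and copper, and their genes are switched on by metals through short promoter elements.

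Values were the deposited log2 levels of 17448 genes, each read by 1 probe set. The RNA read as colorectal epithelium in both cultures: all 12 epithelial markers, such as EPCAM, CDH1, VIL1 and CDX2, lay above the median gene, and their mean level was 8.46 to 8.80 in 3D and 8.65 to 8.67 in 2D. The mean of 10 fibroblast and mesenchymal markers was 2.81 to 2.87 in 3D and 2.88 to 3.07 in 2D. The 6 leukocyte markers averaged 3.00 to 3.06 in 3D and 3.15 to 3.21 in 2D, and the 3 endothelial markers measured averaged 2.68 to 2.73 in 3D and 2.60 to 2.86 in 2D. Of all these markers, 0 passed the test of 3D against 2D by limma. DPPA3, the gene the study manipulates, read 2.99, 2.59 and 2.97 in the 3D control arrays and 2.83, 3.27 and 3.47 in the 2D control arrays (adjusted p = 0.568). Pearson correlations over all genes were 0.987 to 0.994 between arrays in 3D, 0.989 to 0.990 within 2D and 0.981 to 0.987 between the cultures.

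In the control line 1361 of 17448 genes, or 7.8%, passed limma's moderated test at a Benjamini-Hochberg adjusted p of 0.05. Of these, 859 (4.92%) were higher in 3D and 502 (2.88%) were lower. At a change of at least 2-fold, 45 called genes were higher and 2 were lower. The median difference over all genes was -0.02 log2, and the median standard error of a difference was 0.12. When every array was first centred on its own median, the balance turned: 678 genes (3.89%) were higher and 831 (4.76%) lower, because the 3D arrays had medians of 4.077 to 4.081 and the 2D arrays of 4.029 to 4.037. The groups did not overlap for 1301 of the called genes, and for 23.2% of all genes. Without 3D replicate 2 the total was 875 and without 2D replicate 3 it was 905, while any other single array left 918 to 1221. In a fit on the 6 arrays of the comparison alone 562 genes passed, and of the genes described below NQO1, ABCC3, PFKFB4, MT1H, MT3, MT1B, MCM3, KIF20B, SGO2, CENPF, RBL2, DKC1, PSMD11, PSMA3, HSP90AB1, HSP90AA1, CCT5, CCT2, LGR5, APCDD1, RNF43, NKD1, ITGA6 and OLFM4 did not (adjusted p of 0.052 to 0.19). Nothing in the labels says that the arrays of a group came from separate cultures, so the p-values measure the spread between these arrays. In RNA from whole cultures, fewer cells of a kind and less RNA per cell cannot be told apart.

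**Figure D1:**
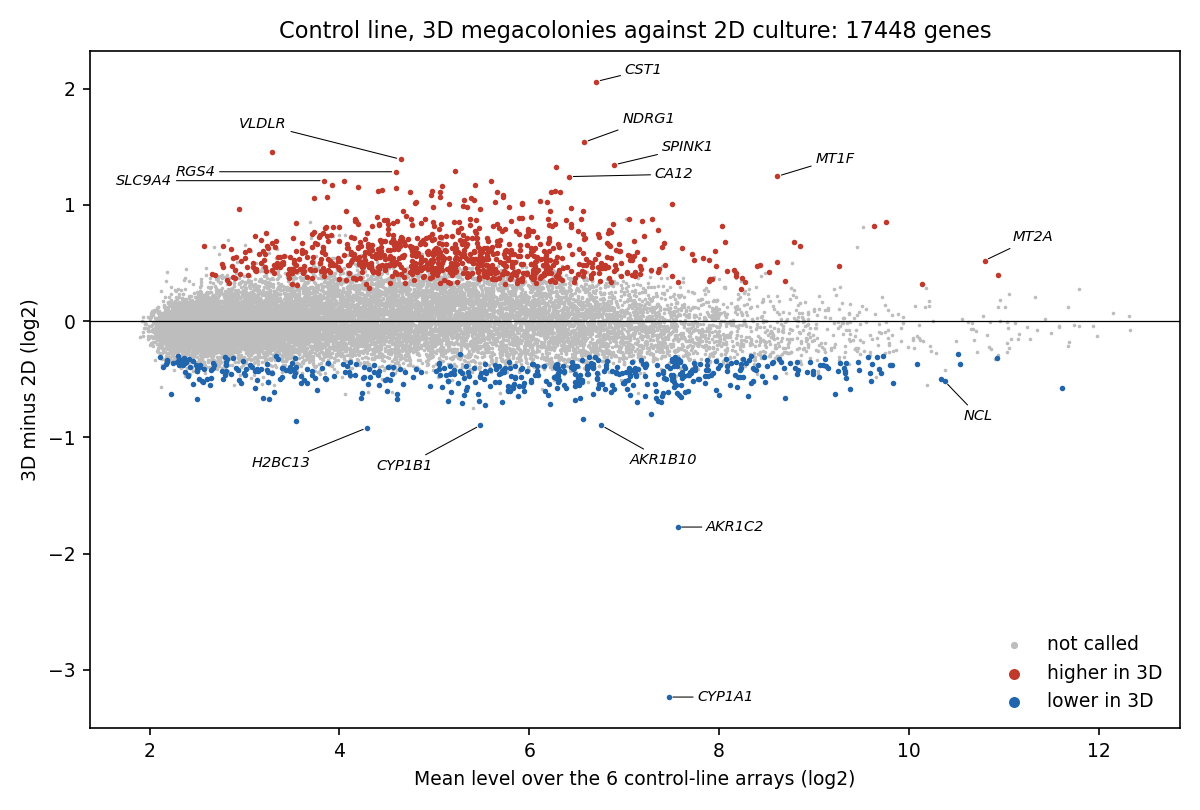
Difference between 3D and 2D culture in the control line (log2, vertical axis) against the mean level over the 6 arrays (log2, horizontal axis), 1 point per gene. Red points are the 859 genes higher in 3D, blue points the 502 genes lower and grey points the rest; CYP1A1 at -3.23 and AKR1C2 at -1.77 lie far below all other genes, and CST1 at 2.06 lies highest.

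The largest change in either direction was in CYP1A1, the P450 enzyme that oxidises polycyclic aromatic compounds and the best known AhR target. It read 6.01, 6.07 and 5.48 in 3D, against 9.16, 8.97 and 9.13 in 2D. Every 3D array lay more than 2 log2 units under every 2D array, and the mean was 9.40-fold lower in 3D (log2 difference -3.23 ± 0.19 SE, adjusted p = 4.57e-11). CYP1B1, a related P450, read 5.17, 4.98 and 4.97 in 3D, against 5.91, 5.95 and 5.95 in 2D (-0.90, adjusted p = 3.06e-05). TIPARP, an ADP-ribosyltransferase that feeds back on AhR, read 5.18, 5.29 and 5.04 in 3D, against 5.88, 5.88 and 5.92 in 2D (-0.72, adjusted p = 0.00025). In both genes the 2D arrays were nearly level with each other and all 3 of the 3D arrays lay lower. NQO1, a quinone reductase that AhR and NRF2 both control, was lower by less (-0.41, adjusted p = 0.0135), a call lost without 3D replicate 2 (adjusted p = 0.0695). These 4 were the called members of the 8 measured in the AhR list, all lower, against 2.88% of all genes lower. The list's median was -0.36 beside -0.02 over all genes. The receptor itself did not pass: AHR read 6.71, 6.69 and 6.88 in 3D and 6.44, 6.61 and 6.68 in 2D (adjusted p = 0.279). Its partner ARNT read 6.08, 6.11 and 5.56 in 3D and 5.86, 5.80 and 5.94 in 2D (adjusted p = 0.861), and the groups overlapped. AHRR was not analysed here.

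The bases upstream of 2 of these genes are shown because AhR with ARNT binds the core GCGTG. The 250 bases before the RefSeq start of each gene (GRCh38.p14) are printed 5′ to 3′ on the gene's own strand, with GCGTG on either strand in capitals and overlapping matches merged. CYP1A1 lies on the minus strand at chr15:74725529-74725778 and TIPARP on the plus strand at chr3:156674340-156674589.
CYP1A1: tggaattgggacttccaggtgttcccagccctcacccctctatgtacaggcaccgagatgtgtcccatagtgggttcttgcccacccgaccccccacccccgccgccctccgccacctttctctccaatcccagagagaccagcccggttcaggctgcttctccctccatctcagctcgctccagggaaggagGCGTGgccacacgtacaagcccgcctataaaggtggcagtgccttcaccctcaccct
TIPARP: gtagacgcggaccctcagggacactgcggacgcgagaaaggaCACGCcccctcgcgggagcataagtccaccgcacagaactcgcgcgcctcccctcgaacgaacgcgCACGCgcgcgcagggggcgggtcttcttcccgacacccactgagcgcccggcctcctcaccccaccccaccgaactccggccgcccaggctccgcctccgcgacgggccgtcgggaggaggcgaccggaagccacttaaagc
CYP1A1 has 1 match, 52 bases before the start, and TIPARP has 2. GCGTG is common: 38.6% of 19681 such windows of the genes measured hold it at least once, against 2 of 8 windows (25%) for the 6 members of the AhR list that have one. A match is a run of letters, not a site shown to be bound.

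Some enzymes of redox and carbonyl metabolism were lower too. Of 33 measured targets of NRF2, the factor that answers to electrophiles and oxidants, and aldo-keto reductases, 10 were lower, 1 was higher and the other 22 did not pass, against 2.88% of all genes lower and 4.92% higher. The list median was -0.21. AKR1C2, a reductase of steroids and of aldehydes, read 6.35, 6.84 and 6.84 in 3D, against 8.35, 8.46 and 8.53 in 2D. All 3 of the 3D values lay below all 3 of the 2D values by over 1 log2 unit, a 3.41-fold lower mean (-1.77 ± 0.19 SE, adjusted p = 1.55e-06). AKR1C3 (-0.80, adjusted p = 4.44e-05) and AKR1B10, which reduces retinal and other aldehydes (-0.90, adjusted p = 0.00521), were lower too. The AKR1C genes are near-identical copies, so their probe sets may share signal and the split between them is uncertain. GCLC, the rate-limiting enzyme of glutathione synthesis, read 6.80, 6.62 and 6.94 in 3D, against 7.46, 7.49 and 7.50 in 2D (-0.70, adjusted p = 6.41e-05). UGDH, which makes UDP-glucuronic acid for conjugation, read 8.42, 8.33 and 8.33 in 3D, against 8.96 to 9.10 in 2D (-0.66, adjusted p = 4.44e-05). In both enzymes the 2D arrays were close together and the 3D arrays all lower. The member that went the other way was the efflux transporter ABCC3 (0.46, adjusted p = 0.0164), a call lost without 3D replicate 1 or 2 or 2D replicate 1 or 3 (largest adjusted p = 0.0889).

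**Figure D2:**
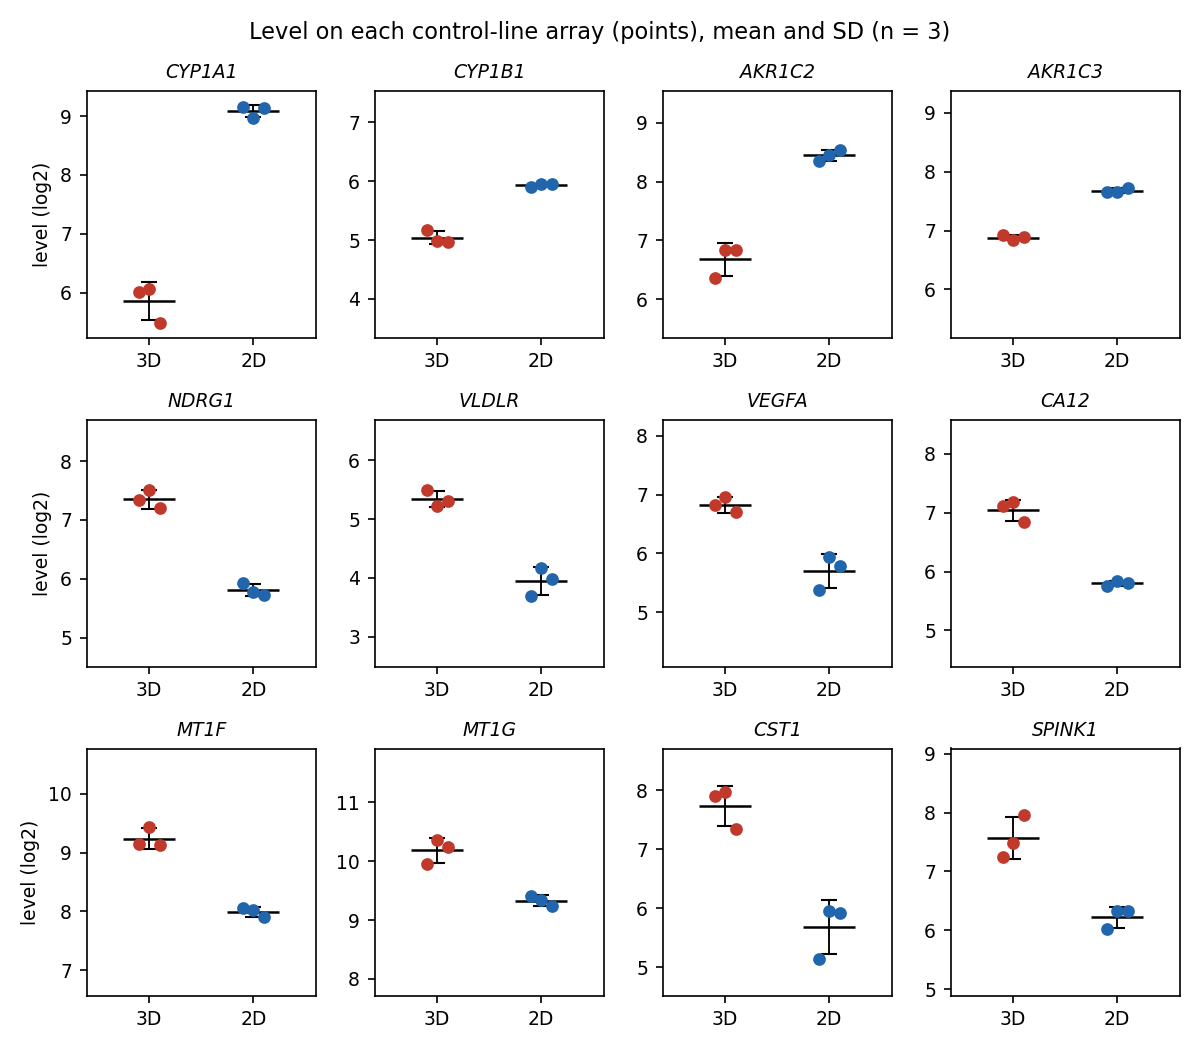
Level of 12 genes on each control-line array (log2), 3D on the left and 2D on the right of each panel; points are arrays, the wide line is the mean and the bar the SD (n = 3), and all panels span the same number of log2 units. The 3D points lie below the 2D points for CYP1A1, CYP1B1, AKR1C2 and AKR1C3 and above them for the other 8 genes, with no overlap in any panel.

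Among hypoxia genes, every call was higher in 3D. Of 43 measured HIF targets, 18 were higher and 0 lower, against 4.92% of all genes higher, with a list median of 0.26 and 15 to 18 calls when any 1 array was left out. CA12, a carbonic anhydrase at the cell surface that sets outside pH, read 7.11, 7.18 and 6.84 in 3D, against 5.75, 5.84 and 5.81 in 2D, a 2.37-fold difference (1.24 ± 0.11 SE, adjusted p = 3.71e-07). NDRG1, a hypoxia and differentiation gene, read 7.34, 7.51 and 7.20 in 3D, against 5.93, 5.78 and 5.73 in 2D (1.54, adjusted p = 2.33e-06). In each of these genes the lowest 3D array lay about 1 log2 unit or more above the highest 2D array. VEGFA, the vascular growth factor, read 6.82, 6.97 and 6.70 in 3D, against 5.38, 5.95 and 5.79 in 2D (1.12, adjusted p = 9.78e-06). BNIP3L, a receptor for the removal of mitochondria, read 5.99, 5.89 and 5.87 in 3D, against 4.92, 4.78 and 4.87 in 2D (1.06, adjusted p = 1.24e-06). Neither gene's groups overlapped, and within VEGFA the 2D arrays were the more spread.

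CCNG2, an unusual cyclin linked to cell cycle arrest, read 5.54, 5.39 and 5.66 in 3D, against 4.18, 4.54 and 4.53 in 2D (1.12, adjusted p = 1.23e-06). VLDLR, a lipoprotein receptor, read 5.49, 5.23 and 5.31 in 3D, against 3.69, 4.18 and 3.98 in 2D (1.39, adjusted p = 2.36e-06). The 3D arrays of both genes were tightly grouped and above every 2D array. PDK1, which shuts pyruvate out of the mitochondrion, was higher (0.87, adjusted p = 0.000947), as were the hexokinase HK2 (0.52, adjusted p = 0.016) and PFKFB4 (0.53, adjusted p = 0.0246), a regulator of glycolysis. These 3, which are also in the hypoxia list, were the called members among 21 measured glycolysis enzymes and transporters, against 4.92% of all genes higher. That list had a median of 0.06. Its count was 1 without 3D replicate 1, and 2 without 3D replicate 2, 2D replicate 1 or 2D replicate 3. Over all 17448 genes 574 to 617 were higher in those fits, fewer than the 859 of the full fit. HK2 lost its call without 3D replicate 1 (adjusted p = 0.0905), and PFKFB4 without 3D replicate 1 or 2 or 2D replicate 1 or 3 (largest adjusted p = 0.138). Of 9 measured HIF subunits and oxygen sensors, 0 passed in either direction. HIF1A read 6.35, 6.62 and 6.86 in 3D and 6.78, 6.90 and 6.75 in 2D (adjusted p = 0.435), and the groups overlapped.

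HIF dimers bind ACGTG or GCGTG, and the same 250 bases are shown for 2 of the hypoxia genes, with ACGTG on either strand in capitals: CCNG2, on the plus strand at chr4:77156957-77157206, and P4HA1, a collagen prolyl hydroxylase on the minus strand at chr10:73096867-73097116, which was chosen for its window after its values were seen.
CCNG2: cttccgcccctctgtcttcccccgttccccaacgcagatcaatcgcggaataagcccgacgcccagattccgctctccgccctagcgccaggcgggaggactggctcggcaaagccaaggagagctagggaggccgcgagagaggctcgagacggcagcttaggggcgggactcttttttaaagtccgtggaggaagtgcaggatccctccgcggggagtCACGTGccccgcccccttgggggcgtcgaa
P4HA1: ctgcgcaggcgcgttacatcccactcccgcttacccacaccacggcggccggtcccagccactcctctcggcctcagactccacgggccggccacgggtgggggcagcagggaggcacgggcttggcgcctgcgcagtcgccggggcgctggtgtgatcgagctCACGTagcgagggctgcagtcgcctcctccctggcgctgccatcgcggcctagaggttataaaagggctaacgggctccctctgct
The match lies 24 bases before the start in CCNG2 and 81 bases before it in P4HA1. Windows were at hand for 37 of the 43 hypoxia genes. ACGTG was in 27 of their 49 windows (55.1%), against 20.3% of all windows, and GCGTG in 31 of 49 (63.3%), against 38.6%. P4HA1 itself read 4.90, 5.02 and 4.85 in 3D, against 4.29, 4.03 and 3.95 in 2D (0.83, adjusted p = 0.000203), with no overlap.

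Calls among metallothioneins and metal transporters were all higher in 3D. Of 20 measured members, 11 were higher and 0 lower, against 4.92% of all genes higher, the list median was 0.39, and 8 to 11 were higher when any 1 array was left out. MT1F read 9.14, 9.44 and 9.13 in 3D, against 8.06, 8.02 and 7.90 in 2D, a 2.37-fold difference (1.25 ± 0.12 SE, adjusted p = 7.8e-07). MT1G read 9.95, 10.36 and 10.25 in 3D, against 9.41, 9.35 and 9.23 in 2D (0.85, adjusted p = 0.000119). MT1E read 7.49, 7.84 and 7.92 in 3D, against 6.85, 7.21 and 6.84 in 2D (0.78, adjusted p = 0.000423). No 3D array of these 3 genes reached down to a 2D array. MT2A, MT1M, MT1H, MT3 and MT1B also passed, with differences of 0.29 to 0.75, while MT1X at 0.37 did not (adjusted p = 0.0698). The call of MT1H was lost without 3D replicate 2 or 2D replicate 3 (largest adjusted p = 0.101), and that of MT3 without 3D replicate 2 or 3 or 2D replicate 1 or 3 (0.179). MT1B lost its call whichever 1 of the 6 arrays was left out (largest adjusted p = 0.162). Metallothionein genes are close copies of each other in 1 cluster, so probe sets may share signal and single members are uncertain. SLC40A1, the iron exporter ferroportin, read 5.39, 5.83 and 5.84 in 3D, against 4.78, 4.97 and 4.75 in 2D (0.85, adjusted p = 0.000124). The iron importer SLC11A2 and the ferric reductase CYBRD1 were higher by 0.56 and 0.71. The zinc exporter SLC30A1, itself a target of the metal-sensing factor MTF1, read 4.37, 4.59 and 4.45 in 3D and 4.56, 5.28 and 4.85 in 2D (-0.42, adjusted p = 0.0974), and the transferrin receptor TFRC did not pass either (-0.11, adjusted p = 0.652).

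The windows of MT2A (chr16:56608334-56608583, plus strand) and MT1H (chr16:56669564-56669813, plus strand) are shown because metal response elements are built on TGCGCNC or TGCACNC, here in capitals on either strand with overlapping matches merged.
MT2A: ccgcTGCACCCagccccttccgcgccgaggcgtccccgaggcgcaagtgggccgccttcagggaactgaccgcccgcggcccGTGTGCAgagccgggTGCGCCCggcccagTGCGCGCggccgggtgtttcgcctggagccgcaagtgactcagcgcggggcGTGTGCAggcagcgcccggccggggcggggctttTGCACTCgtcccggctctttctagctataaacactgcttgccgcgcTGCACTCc
MT1H: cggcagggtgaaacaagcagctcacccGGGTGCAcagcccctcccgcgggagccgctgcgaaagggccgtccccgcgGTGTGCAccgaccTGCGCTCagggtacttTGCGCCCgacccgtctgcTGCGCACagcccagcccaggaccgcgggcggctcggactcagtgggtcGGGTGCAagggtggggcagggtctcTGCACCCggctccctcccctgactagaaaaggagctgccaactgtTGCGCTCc
MT2A has 7 matches and MT1H has 8, while 1.28% of all 19681 windows hold 3 or more. MT1X, which did not pass, has 4 and MT1B has 3. Windows were at hand for 4 of the 9 measured metallothioneins.

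Calls among replication genes were all lower, with small differences. Of 48 measured S phase and replication genes, 16 were lower and 0 higher, against 2.88% of all genes lower, and the list median was -0.26. DTL, an adaptor that destroys replication licensing factors, read 6.24, 6.26 and 5.95 in 3D, against 6.96, 7.07 and 6.94 in 2D, a 1.79-fold lower mean (-0.84 ± 0.13 SE, adjusted p = 0.000193). CDC45, part of the replicative helicase, read 7.07, 6.99 and 6.64 in 3D, against 7.39, 7.59 and 7.63 in 2D (-0.64, adjusted p = 0.000742). The 3D arrays of both genes lay below all 2D arrays, 3D replicate 3 lowest. The fork protein TIPIN (-0.57, adjusted p = 0.00395) and the helicase subunit MCM3 (-0.49, adjusted p = 0.00525) were lower too. Without 3D replicate 2 or 2D replicate 3 the S phase count was 8.

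Calls among mitosis genes went both ways. Of 60 measured, 16 were lower and 5 higher, against 2.88% of all genes lower and 4.92% higher, with a list median of -0.26. The higher count is near the share over all genes. NCAPH, a condensin subunit, read 6.22, 6.26 and 6.32 in 3D, against 6.76, 6.83 and 6.68 in 2D (-0.49, adjusted p = 0.00502). The kinase AURKA averaged 6.49 ± 0.066 in 3D, against 7.04 ± 0.045 in 2D (SD, n = 3 each; -0.54, limma adjusted p = 0.0119), a call lost without 3D replicate 2 (adjusted p = 0.0527). Both genes were flat within each culture. CENPE, a kinetochore motor, went the other way and read 4.73, 4.57 and 5.05 in 3D, against 4.11, 4.37 and 3.82 in 2D (0.68, adjusted p = 0.00254). KIF20B, ASPM, SGO2 and CENPF were the other 4 higher members (0.43 to 0.70), and each lost its call without 3D replicate 3, 2D replicate 1 or 2D replicate 3. The higher count was 1 without any of those 3 arrays and 3 without 3D replicate 1. The lower count was 9 without 3D replicate 1, 8 without 3D replicate 2 or 2D replicate 3, and 7 without 2D replicate 2. After centring, 3 members were higher and 20 lower. MKI67, the proliferation marker, read 7.97 to 8.05 in 3D and 8.25 to 8.27 in 2D, a difference that did not pass (-0.25, adjusted p = 0.147) although the groups did not overlap. CCND1 (-0.06), MYC (-0.17) and CDKN1A (0.00) did not pass, with adjusted p-values of 0.831, 0.444 and 0.996. Of 25 measured CDK inhibitors and quiescence genes, 4 were higher and 0 lower, against 4.92% of all genes higher, with a list median of -0.06. The 4 were CCNG2, which is also in the hypoxia list, BTG1 (0.77), TXNIP (0.82) and RBL2 (0.39). TXNIP, which binds thioredoxin and limits glucose uptake, read 8.48, 8.61 and 8.24 in 3D, against 7.43, 7.76 and 7.68 in 2D (adjusted p = 0.00184), and its groups did not overlap. The call of RBL2 was lost without 3D replicate 1 or 2 or 2D replicate 1 or 3 (largest adjusted p = 0.112).

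Of 51 measured genes of ribosome assembly, 17 were lower and 0 higher, against 2.88% of all genes lower, with a median of -0.27 (11 without 3D replicate 2 or 2D replicate 3). NCL, the abundant nucleolar protein nucleolin, read 10.08, 10.09 and 10.19 in 3D, against 10.53, 10.70 and 10.68 in 2D (-0.52, adjusted p = 0.000474). NOP16 read 7.73, 7.63 and 7.69 in 3D, against 8.22, 8.53 and 8.19 in 2D (-0.63, adjusted p = 0.000708). NOLC1, a nucleolar chaperone, was lower by a like size (-0.55, adjusted p = 0.00101), as was DKC1, the pseudouridine synthase of small nucleolar particles (-0.43, adjusted p = 0.00229). In contrast, of 42 measured proteins of the ribosome itself, 1 was higher and 2 lower, against 4.92% and 2.88% of all genes. Their median was 0.05, and 0.00 after centring.

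The proteasome list had no member above 0: all 28 measured subunits had a lower mean in 3D. Of these 10 passed, against 2.88% of all genes lower, and the median was -0.33. PSMD12, a subunit of the regulatory particle, read 7.05, 7.01 and 6.97 in 3D, against 7.72, 7.85 and 7.53 in 2D, a 1.61-fold lower mean (-0.69 ± 0.09 SE, adjusted p = 4.07e-05). PSMD11 (-0.49, adjusted p = 0.00339), PSMB7 (-0.52, adjusted p = 0.0035) and PSMA3 (-0.59, adjusted p = 0.00911) followed, and the count was 6 without 2D replicate 3. PSMA3 was not called without 3D replicate 1. Chaperones gave a weaker result: 5 of 22 were lower, against 2.88% of all genes. Among them were HSP90AB1 (-0.45), HSP90AA1 (-0.38), CCT5 (-0.31) and CCT2 (-0.37). The count was 1 without 3D replicate 1, 3D replicate 2, 2D replicate 2 or 2D replicate 3. Over all 17448 genes 274 to 415 were lower in those fits, fewer than the 502 of the full fit. In nucleotide synthesis 8 of 25 were lower and 0 higher, against 2.88% of all genes lower and 4.92% higher. UMPS, which makes uridine monophosphate, read 7.15, 7.14 and 6.82 in 3D, against 7.65, 7.88 and 7.66 in 2D (-0.69, adjusted p = 0.000591). GMPS, of guanine nucleotide synthesis, was lower by less (-0.50, adjusted p = 0.00199), and these 2 calls held whichever 1 array was left out. The nucleotide count itself was 2 without 3D replicate 2, 3 without 2D replicate 3 and 5 without 3D replicate 3 or 2D replicate 2. ODC1, the first enzyme of polyamine synthesis, read 10.20, 10.06 and 10.02 in 3D, against 10.49, 10.61 and 10.67 in 2D (-0.50, adjusted p = 0.00171).

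**Figure D3:**
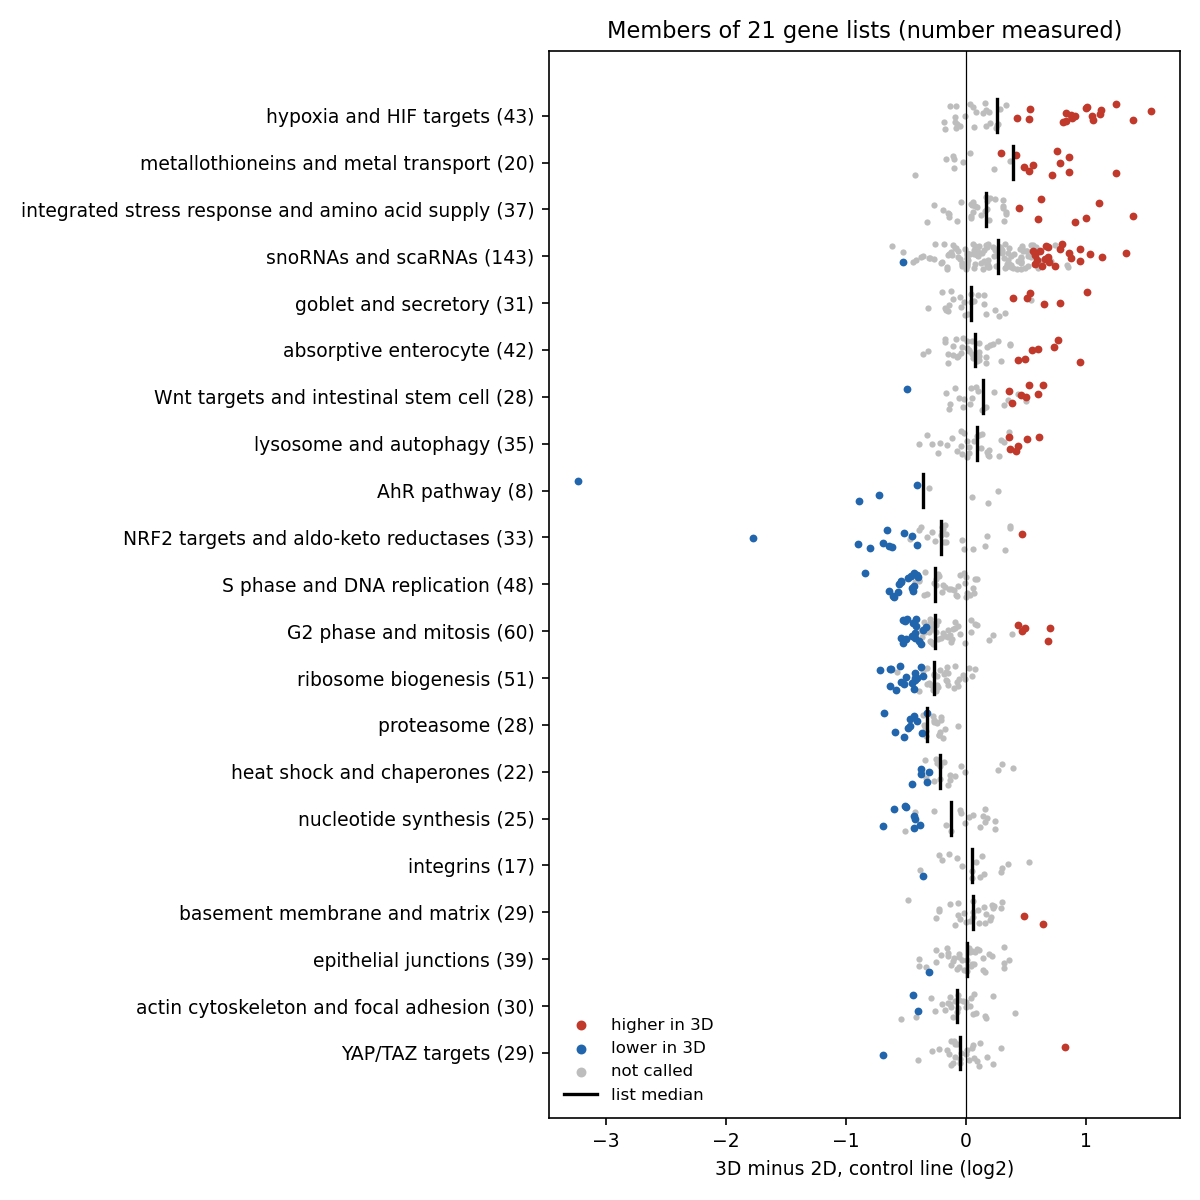
Difference between 3D and 2D in the control line (log2) for the members of 21 gene lists, with the number measured in parentheses. Red points were called higher, blue points called lower, grey points not called, and the black bar is the list median; the hypoxia and metal lists lie to the right, the AhR, replication, ribosome assembly and proteasome lists to the left, and the adhesion lists at the bottom lie around 0.

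Calls in the stress response list were all higher. Of 37 measured genes of the integrated stress response, which the factor ATF4 carries out when amino acids or protein folding fail, 7 were higher and 0 lower, against 4.92% of all genes higher, with a median of 0.16, and 6 to 8 were higher when any 1 array was left out. PHGDH, the first enzyme of serine synthesis, read 6.86, 6.86 and 6.63 in 3D, against 5.76, 5.70 and 5.57 in 2D (1.11 ± 0.12 SE, adjusted p = 2.42e-06). SLC38A2, a carrier of neutral amino acids, read 7.89, 7.87 and 8.01 in 3D, against 7.23, 7.21 and 7.44 in 2D (0.63, adjusted p = 0.000366). PCK2, a mitochondrial enzyme of gluconeogenesis, was higher by 0.60 (adjusted p = 0.000582). The 3D arrays of all 3 genes lay clear of the 2D arrays. VLDLR, STC2 and DDIT4 were called in this list and are also in the hypoxia list. ATF4 itself (0.30, adjusted p = 0.242) and asparagine synthetase ASNS (0.31, adjusted p = 0.111) did not pass.

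Some products of differentiated gut cells were higher. In the goblet and secretory list 6 of 31 were higher and 0 lower, against 4.92% of all genes higher, with a median of 0.04 that was -0.01 after centring. TFF3, a trefoil peptide of goblet cells, read 7.86, 8.12 and 8.05 in 3D, against 7.26, 7.11 and 6.64 in 2D (1.01 ± 0.14 SE, adjusted p = 3.91e-05). MUC2, the gel-forming mucin of the colon, read 4.41, 4.56 and 4.39 in 3D, against 3.87, 3.97 and 3.92 in 2D (0.53, adjusted p = 0.00036). MUC20, a membrane mucin, was higher by 0.78 (adjusted p = 0.000232) and the goblet cell product CLCA1 by 0.65 (adjusted p = 0.00107), CLCA1 at a level of 2.14 to 3.15 that lies under the median gene. All 4 separated the cultures with no overlap. In the absorptive enterocyte list 7 of 42 were higher and 0 lower, against 4.92% of all genes higher. The count was 3 without 3D replicate 1 or 3D replicate 2. Over all 17448 genes 599 and 601 were higher in those fits, fewer than the 859 of the full fit. CEACAM1, an adhesion molecule of the brush border, read 7.06, 7.09 and 6.98 in 3D, against 6.04, 5.98 and 6.26 in 2D (0.95 ± 0.11 SE, adjusted p = 3.77e-06). The brush border motor MYO1A (0.59, adjusted p = 0.00344) and the chloride exchanger SLC26A3 (0.73, adjusted p = 0.00691) were higher as well. KRT20, the keratin of differentiated colon cells, had lower values in 3D, 7.56, 7.49 and 7.16, against 7.66, 7.68 and 7.80 in 2D, and did not pass (-0.31, adjusted p = 0.127).

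Stem cell and Wnt target genes did not move as 1 group. LGR5, the crypt stem cell receptor, read 6.33, 6.69 and 6.40 in 3D, against 6.98, 6.99 and 6.92 in 2D (-0.49, adjusted p = 0.00715). On the 6 arrays of the comparison alone its adjusted p was 0.0525. It was the 1 lower member of 28 measured, which is near the 2.88% of all genes lower, while 7 were higher, against 4.92% of all genes. APCDD1, an inhibitor of Wnt receptors, read 7.61, 7.62 and 7.07 in 3D, against 6.91, 6.70 and 6.90 in 2D (0.60, adjusted p = 0.00392, and 0.0552 on the 6 arrays alone). RNF43, a ligase that removes Wnt receptors, read 8.20, 8.13 and 7.67 in 3D, against 7.46, 7.47 and 7.49 in 2D (0.53, adjusted p = 0.0148), and NKD1, another inhibitor of the pathway, was higher by 0.38 (adjusted p = 0.0206). RNF43 was not called without 3D replicate 1 or 2 (largest adjusted p = 0.0895), and NKD1 not without 3D replicate 1 or 2D replicate 1 or 3 (largest adjusted p = 0.126). In both APCDD1 and RNF43, 3D replicate 3 lay closest to the 2D arrays. The higher count was 3 without 3D replicate 1, 3D replicate 2 or 2D replicate 1, and 2 without 2D replicate 3.

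Protease inhibitors included some of the highest differences. CST1, a secreted inhibitor of cysteine proteases, read 7.90, 7.97 and 7.34 in 3D, against 5.14, 5.96 and 5.92 in 2D, a 4.17-fold higher mean (2.06 ± 0.22 SE, adjusted p = 2.33e-06). Its 2D replicate 1 was well below the other 2D arrays, and all 3D arrays were above all of them. SPINK1, a trypsin inhibitor, read 7.25, 7.49 and 7.96 in 3D, against 6.02, 6.33 and 6.32 in 2D (1.34, adjusted p = 7.51e-06). CST2 (0.85, adjusted p = 0.0252) is a close copy of CST1 whose probe set may share its signal. It was the third of 44 measured proteases and inhibitors to pass, all 3 higher. That is 6.82% of the list, near the 4.92% of all genes higher, and the list median was 0.06. The call of CST2 was lost without 3D replicate 2 or 3 or 2D replicate 2 or 3 (largest adjusted p = 0.0868). Some single genes lay outside the lists described here. UPK1A, a uroplakin, read 6.34, 6.10 and 6.14 in 3D, against 5.02, 5.11 and 4.83 in 2D (1.21, adjusted p = 6.52e-07). NAIP, an inflammasome sensor of bacterial flagellin, read 5.76, 5.68 and 5.55 in 3D, against 4.31, 4.56 and 4.63 in 2D (1.16, adjusted p = 6.52e-07). SLC9A4, a sodium-proton exchanger, read 4.21, 4.53 and 4.59 in 3D, against 3.12, 3.42 and 3.17 in 2D (1.21, adjusted p = 7.8e-07). The 3D and 2D arrays of these 3 genes did not overlap. RGS4, which turns off G protein signals, AKAP9, a scaffold of the Golgi and centrosome, the hepatic carrier SLCO1B1, GPCPD1 and the peroxisomal oxidase ACOX2 were higher by 1.15 to 1.28.

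Matrix and adhesion genes gave few calls. Of 17 measured integrins 0 were higher and 1, ITGA6, was lower (-0.36, adjusted p = 0.0317), a call lost without any 1 array other than 2D replicate 1 (largest adjusted p = 0.106). Of 29 basement membrane and matrix genes 2 were higher, FREM2 (0.64, adjusted p = 0.0116) and LAMB2 (0.48, adjusted p = 0.025), and FREM2 was not called without 3D replicate 2 or 2D replicate 2 (largest adjusted p = 0.0901), nor LAMB2 without any 1 array other than 2D replicate 1 (largest adjusted p = 0.0694). ITGB1, the integrin subunit that binds laminin and collagen, read 6.30, 6.37 and 6.58 in 3D and 6.28, 6.13 and 6.39 in 2D (adjusted p = 0.397). Its groups overlapped, as did those of LAMA5 (adjusted p = 1). Of 39 junction genes 1 was lower and 0 higher, and 2 of 30 actin and focal adhesion genes were lower and 0 higher. Of 29 targets of YAP and TAZ, the factors that respond to stiffness and cell spreading, 1 was higher and 1 lower. The higher was NT5E, an ecto-nucleotidase (0.82, adjusted p = 0.00017), and the lower was EREG, an EGF receptor ligand (-0.69, adjusted p = 0.00433). CCN2, a matricellular target of YAP, read 3.61, 3.48 and 3.40 in 3D and 3.71, 3.71 and 3.92 in 2D and did not pass (-0.28, adjusted p = 0.0772), and CCN1 did not either (adjusted p = 0.584). Of 24 mesenchymal genes 0 passed. In none of these 6 lists was the share called, both directions together, above the 7.8% of all genes. By direction, 6.90% of the matrix genes were higher, against 4.92% of all genes. The shares lower were 5.88% of integrins, 6.67% of actin and focal adhesion genes and 3.45% of YAP and TAZ targets, against 2.88%. Each of these shares rests on 1 or 2 genes, and the other shares by direction were below those of all genes.

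Calls among small nucleolar and Cajal body RNA genes were nearly all higher, and those among microRNA genes were balanced. Of 143 measured snoRNA and scaRNA genes, the guides of RNA modification in the nucleolus and Cajal bodies, 21 were higher and 1 lower, against 4.92% of all genes higher and 2.88% lower, with a median of 0.27. SNORD4A read 6.38, 5.95 and 6.12 in 3D, against 4.98, 5.07 and 5.32 in 2D (1.03 ± 0.18 SE, adjusted p = 0.000846). SCARNA22 read 6.38, 6.74 and 6.97 in 3D, against 5.57, 5.81 and 5.86 in 2D (0.95, adjusted p = 0.00146). SCARNA10 read 6.46, 6.56 and 7.80 in 3D, against 5.49, 5.58 and 5.77 in 2D (1.33, adjusted p = 0.00675), with 3D replicate 3 far above the rest, and without that array it did not pass (adjusted p = 0.0546). The higher count was 11 without 3D replicate 1 or 3D replicate 3, 10 without 2D replicate 1 and 13 without 2D replicate 3. Over all 17448 genes 574 to 766 were higher in those fits, fewer than the 859 of the full fit. Nothing in the labels says that small RNA was selected, and whether these probe sets read the mature RNA, a precursor or the host transcript was not tested. Of 161 microRNA genes 5 were higher and 5 lower, which lies near the share of all genes. MIR181A2 read 4.94, 4.78 and 5.17 in 3D, against 3.94, 3.86 and 3.73 in 2D (1.12 ± 0.18 SE, adjusted p = 0.000244), and its groups did not overlap. Its 2 mature products are printed with the seed (bases 2 to 8) in capitals, since the seed sets which messages a microRNA pairs with. The hairpin lies on the plus strand of chromosome 9, with the first arm at chr9:124692480-124692502 in RefSeq on GRCh38.p14.
hsa-miR-181a-5p: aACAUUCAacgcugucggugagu
hsa-miR-181a-2-3p: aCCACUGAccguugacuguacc
The 2 seeds differ, and the array does not say which arm the cells kept.

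Genes of long span were called higher more often than short ones. The 8530 protein-coding genes above the median level were divided by the span of the gene in the RefSeq annotation into 5 bins of 1706. In the shortest bin, up to 9.002 kb, 4.04% of genes were higher and 3.63% lower in 3D. In the longest bin, from 86.7 kb, 16.6% were higher and 1.99% lower. Across genes, which are not independent, span and difference had a Spearman correlation of 0.217. Over all 16715 protein-coding genes with a span, an alternative added after the data were seen, the correlation was 0.145. The 5 mitosis genes that were higher had a median span of 62.5 kb, the 16 that were lower 21.4 kb and the 39 not called 32.5 kb. The ranges of the called genes overlap at BUB1B, a lower gene of 60.1 kb that was named after its span was seen. AKAP9 (1.17, adjusted p = 2.39e-06) is among the long genes that were higher. The part that RNA quality, transcript length or the place of probes along a gene plays in this pattern was not tested.

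**Figure D4:**
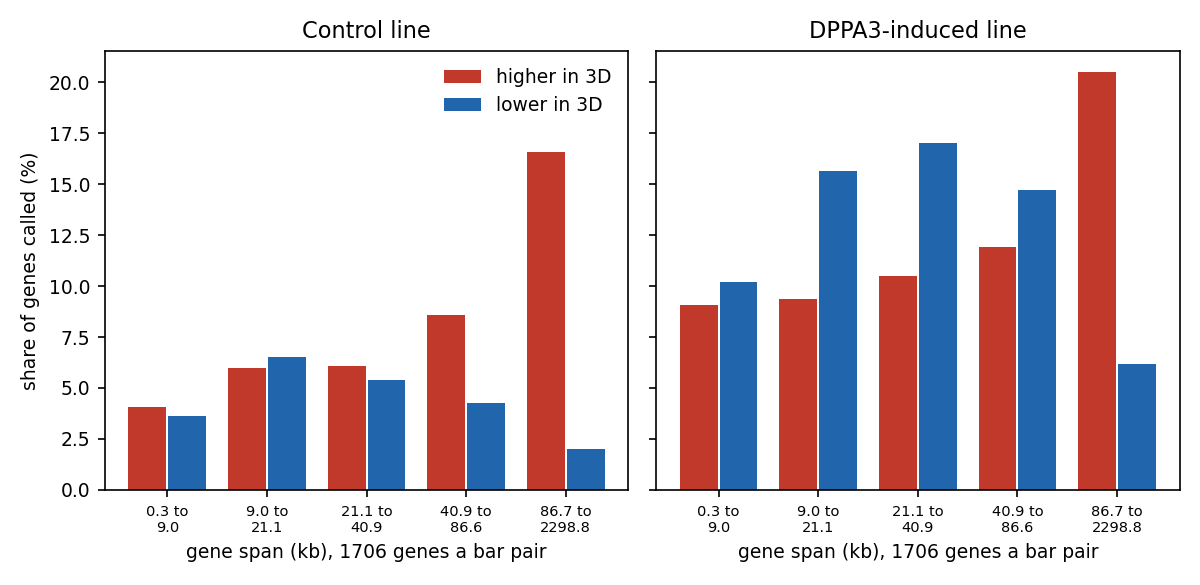
Share of genes called higher (red) or lower (blue) in 3D, in percent, by 5 bins of gene span (kb) among 8530 protein-coding genes above the median level, in the control line on the left and the DPPA3-induced line on the right. In the control line the share higher is 4.04% in the shortest bin and 16.6% in the longest, and in the induced line the longest bin has 20.5% higher and 6.15% lower.

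The DPPA3-induced line went through the same 2 cultures on 6 other arrays, so its values stand beside those of the control line without shared samples. There 2599 genes passed (14.9%), 1317 higher (7.55%) and 1282 lower (7.35%). Across the 17448 genes the culture differences of the lines had a Pearson correlation of 0.644 and a Spearman correlation of 0.535. Of the control line's 859 higher genes 560 (65.2%) were also higher in the induced line, where they made up 42.5% of the higher genes. Of its 502 lower genes 294 (58.6%) were lower there too, 22.9% of that line's lower genes. Among all 1361, 1277 had the same sign. CYP1A1 read 5.80, 5.18 and 4.96 in 3D, against 9.48, 9.67 and 9.58 in 2D in the induced line (-4.26, adjusted p = 7.24e-14), and its difference between the lines did not pass (adjusted p = 0.125). NDRG1 differed by 2.15 and MT1F by 1.18 in the induced line, and for neither did the difference between lines pass (adjusted p = 0.412 and 0.965). The replication list had 16 of 48 members lower in the control line and 38 in the induced line, with medians of -0.26 and -0.65. Only 1 replication gene passed the test of the difference between the lines, so that the counts are not shown to differ gene by gene.

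The difference between the lines itself passed for 42 genes (0.241%), 24 with the more positive culture difference in the control line (0.138%) and 18 with the more negative (0.103%). Of the 1361 genes called in the control line, 17 were among them. PLA2G2A, a secreted phospholipase with antibacterial action, read 10.18, 10.20 and 10.08 in 3D and 10.38, 10.46 and 10.44 in 2D in the control line. In the induced line it read 6.70, 7.25 and 6.70 in 3D, against 8.95, 8.82 and 8.82 in 2D. The culture difference was thus small and not called in the control line (-0.27, adjusted p = 0.164) and large in the induced line (-1.98), and the lines differed by 1.71 ± 0.17 SE (adjusted p = 3.31e-06). OLFM4, a glycoprotein of crypt base cells, read 5.77, 5.98 and 6.18 in 3D, against 5.37, 5.72 and 5.36 in 2D in the control line. In the induced line it read 8.30, 8.21 and 8.50 in 3D, against 9.30, 9.19 and 9.40 in 2D, so that it was higher in 3D in the control line (0.50, adjusted p = 0.031) and lower in the induced line (-0.96). The control line's call of OLFM4 was lost without 3D replicate 2, 3D replicate 3, 2D replicate 1 or 2D replicate 3. Its level was lower in all 6 control arrays than in all 6 induced arrays, in both cultures.

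CEACAM5, the carcinoembryonic antigen, read 8.75, 8.96 and 8.93 in 3D and 9.01, 8.98 and 8.97 in 2D in the control line (-0.11, adjusted p = 0.517). In the induced line it read 9.10, 9.18 and 9.18 in 3D, against 8.21, 8.30 and 8.29 in 2D, and the lines differed by -0.99 ± 0.13 SE (adjusted p = 0.000196). CEACAM7 and FAM13A were higher in 3D in both lines and by more in the induced line, with differences between the lines of -1.33 and -1.39. The control line's call of CEACAM7 was lost without 3D replicate 1 or 2 (largest adjusted p = 0.0686). SLC9A4 was the reverse case: its 1.21 in the control line compares with 0.34 in the induced line, a difference of 0.87 ± 0.17 SE (adjusted p = 0.0241). AURKA was lower in 3D in both lines and by less in the control line (-0.54 against -1.43). By the 12 arrays of both lines alone, 7 genes passed in place of 42, and leaving out single arrays gave 11 to 70, with 11 without control 3D replicate 2 or induced 3D replicate 1 and 70 without induced 3D replicate 2.

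**Figure D5:**
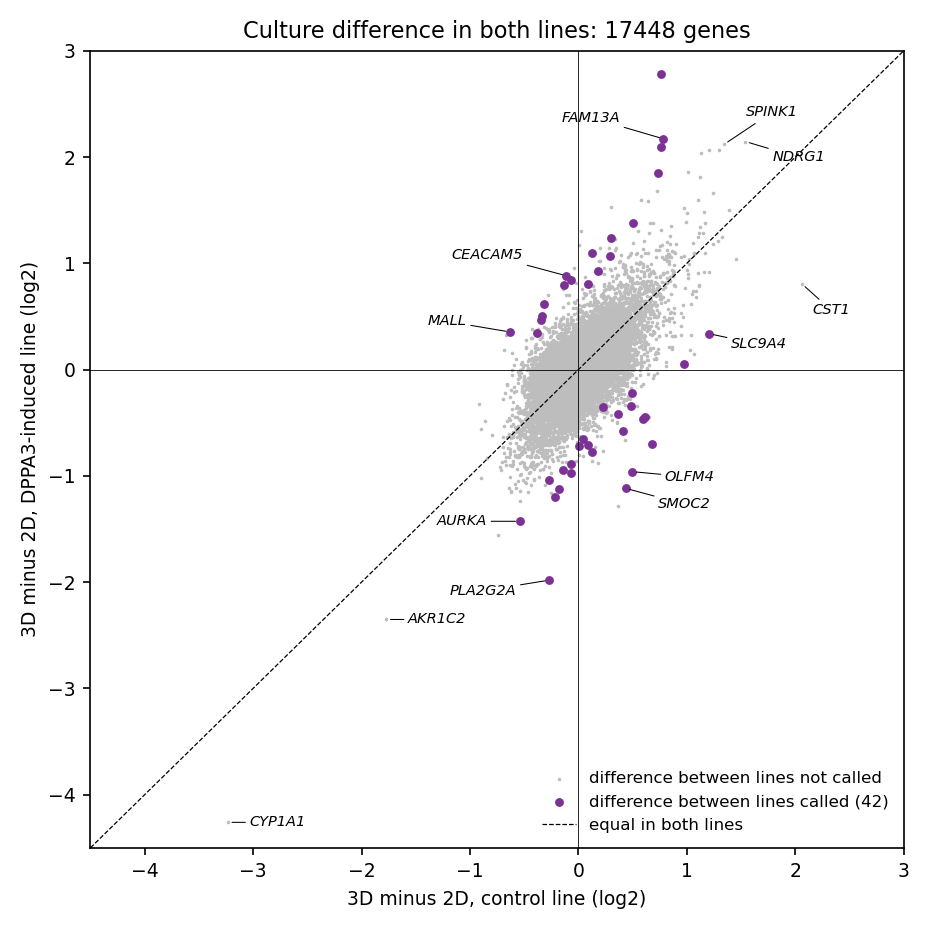
Difference between 3D and 2D in the control line (log2, horizontal axis) against the same difference in the DPPA3-induced line (log2, vertical axis), 1 point per gene. Purple points are the 42 genes whose differences were called unequal, and the dashed line marks equality; CYP1A1 and AKR1C2 are low in both, while OLFM4 and SMOC2 lie right of 0 and below 0.

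Matrigel megacolonies of 2 other control lines were arrayed without DOX, a shRNA control on 3 arrays and a knockout control on 2, and their levels are given side by side with no test, since line, experiment and DOX cannot be told apart between them. CYP1A1 read 4.77 to 4.86 in the shRNA control and 5.04 and 5.25 in the knockout control, lower than the 5.48 to 6.07 of the DOX-treated 3D control. NDRG1 read 8.85 to 8.99 in the shRNA control and 8.59 to 9.11 in the knockout control, above the 7.20 to 7.51 of the DOX-treated 3D control and further from the 5.73 to 5.93 of 2D. CA12 read 7.32 to 7.42 and 7.31 to 7.56 in those lines, and MT1F 9.56 to 9.64 and 9.38 to 9.56. For these 4 genes both DOX-free 3D lines lay on the same side of the 2D control arrays as the DOX-treated 3D control. The 4 were chosen from the large differences of the control line, and how other genes compare was not counted. CST1 read 7.73 to 8.28 in the shRNA control and 7.59 and 7.57 in the knockout control, beside 7.34 to 7.97 in the DOX-treated 3D control. OLFM4 did not keep to that pattern: it read 3.52 to 3.78 and 3.38 to 3.69 in the DOX-free 3D lines, below both the 3D and the 2D arrays of the control line. Nor did KRT20, whose difference was not called. It read 8.39 to 8.47 and 8.21 to 8.42 in the DOX-free 3D lines, above both the 3D and the 2D arrays of the control line.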

How the data were processed

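Total RNA of 24 samples was hybridised to Affymetrix Human Gene 1.0 ST arrays. Per the submitters' processing notes, the authors used RMA in Partek 6.6, and the deposited values are log2 levels. No genome build is named in the labels or file headers. Of 20276 probe sets, 18062 carried 1 gene symbol, 1288 several and 926 none, and the single-symbol probe set with the highest mean stood for each of 17448 genes. Arrays have no read depth, and their number limits the precision. limma 3.58.1 in R 4.3.3 was fitted with 1 coefficient for each of 9 groups over all 24 arrays, with Benjamini-Hochberg adjustment over all genes. On simulated data, with independent normal noise and 100 genes changed at each size, it recovered 98% of 1-log2 and 55% of 0.5-log2 changes. There were 10 false calls among 163, which is not an error rate for the real calls. Named genes were the 16 furthest in each direction, the most changed members of each list, fixed reference genes, and the genes that differed most between the lines. The comparison and all lists were chosen with earlier results of these data known. Of 55 gene lists run, only some are described in the text. Those not described include lysosome and autophagy, with 6 of 35 genes higher, and Notch, with 0 of 19 called. Alternatives were fewer arrays, the replicate number as a block, centring, other filters and probe rules, and leaving out each array. Gene spans were an alternative added after seeing the data.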

Additional observations from a re-analysis of the deposited data

Results flagged for a closer look

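In 13 named genes the culture difference of the control line differed from that of the DPPA3-induced line, by limma's test of that difference over all genes. Values are the control line's difference minus the induced line's, in log2. The control line had the more positive difference for PLA2G2A (1.71), SMOC2 (1.55), OLFM4 (1.46), SNORA67 (1.38), EME1 (1.06), AURKA (0.89) and SLC9A4 (0.87). It had the more negative difference for FAM13A (-1.39), CEACAM7 (-1.33), RNASE2 (-1.12), CEACAM5 (-0.99), MALL (-0.99) and KRT20 (-0.93). OLFM4, SNORA67 and EME1 were called in opposite directions in the lines, as was MALL.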

How the results depend on the processing

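The control line's 1361 calls became 562 on its 6 arrays alone and 824 on the 12 arrays of the induction experiment, fits with fewer samples, and 875 to 1221 when 1 array was left out. Genes higher in 3D numbered 436 on 6 arrays alone and 574 to 806 without 1 array. Genes lower in 3D numbered 126 on 6 arrays, 232 on 12, 831 after centring and 274 to 415 without 1 array. Genes that differed between the lines numbered 7 on 12 arrays and 11 to 70 without 1 array. The cause of these moves was not tested.

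The replicate number as a block gave 1235 calls in the control line, 2494 in the induced line and 31 between the lines, in place of 1361, 2599 and 42. Deviations of same-numbered 3D and 2D arrays correlated at 0.001, -0.028 and -0.012, and those of differently numbered arrays at -0.018 to 0.030. The labels do not say what the number marks, and these correlations cannot show whether the arrays were paired.

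Of 207 named genes 189 passed, all of which kept their sign under every alternative run, and 104 passed whichever 1 array was left out. Many were named because they passed with large differences or small p-values, so these counts are not an independent test of the calls. On the 6 arrays of the comparison alone 104 of the 189 passed, with the replicate block 171 and after centring 182. Among genes that did not pass, leaving out single arrays gave differences of -0.12 to 0.043 for CCND1, -0.16 to 0.14 for CDKN1A and -0.059 to 0.10 for LAMA5. CDKN1A was -0.045 after centring. Of the other 2214 probe sets, 296 passed.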
